A study of Mus musculus with 6 samples.

Results

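The Bcl2 family decides at the mitochondrial outer membrane whether a cell dies by apoptosis. Its probes were followed in testes with and without Gipr, the receptor for glucose-dependent insulinotropic polypeptide, a gut hormone whose receptor signals through cAMP. The members were 10 genes taken by name: the pro-death Bax, Bak1, Bad, Bid, Bcl2l11 and Pmaip1, and the pro-survival Bcl2, Bcl2l1, Bcl2l2 and Mcl1. Every non-control probe carrying one of these gene names was used, which gave 15 of the 55681 non-control probes of the array, under 10 of its 34844 gene and transcript names. The pro-death side had 8 probes and the pro-survival side had 7.

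The knockout group consisted of testes of 8-week-old C57BL/6 mice with a Gipr knockout (n = 3), and the other group of testes of 8-week-old C57BL/6 wild-type mice (n = 3). The labels do not state how the Gipr allele was disrupted. Total RNA of each testis sample was labelled with a single dye and read on 1 Agilent whole-mouse array, so that 6 arrays were compared. The RNA came from whole tissue, in which fewer cells of a type and less RNA per cell cannot be told apart.

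Bax and Bak1 are the effectors that permeabilize the outer membrane and release cytochrome c. The pro-survival proteins Bcl2, Bcl2l1 (Bcl-xL), Bcl2l2 (Bcl-w) and Mcl1 hold the effectors and the BH3-only proteins in check, and the BH3-only proteins Bad, Bid, Bcl2l11 (Bim) and Pmaip1 (Noxa) relieve or bypass that restraint. In the mouse testis, loss of Bax disturbs spermatogenesis and leaves an excess of early germ cells, and loss of Bcl2l2 makes males sterile. Much of the family's control is by protein binding, phosphorylation, cleavage and turnover, none of which an RNA array reads.

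The probes are 60 bases long, and their letters are the sequence that each value rests on. A probe of Bcl2l11 and the single Bcl2 probe are printed with the Bcl2l1 probe that had the lowest unadjusted p of the family. All are given 5′ to 3′ in lower case, as the files list them.
Bcl2l11: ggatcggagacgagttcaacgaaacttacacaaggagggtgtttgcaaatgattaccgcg
Bcl2: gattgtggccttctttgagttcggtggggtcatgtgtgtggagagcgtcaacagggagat
Bcl2l1: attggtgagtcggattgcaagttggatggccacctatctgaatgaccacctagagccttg
The files place these on mouse build mm9. The Bcl2l11 probe covers chr2:127972893-127983988 on the plus strand, so its 60 bases are drawn from a span of 11096 bases and the rest of the span is not in the probe. The Bcl2 probe lies at chr1:108608970-108609029 on the minus strand and carries a single transcript entry, NM_177410, while RefSeq lists 2 protein-coding transcripts of the gene. The Bcl2l1 probe lies at chr2:152655185-152655244 on the minus strand, and the other Bcl2l1 probe lies at chr2:152606404-152606463. RefSeq lists 5 protein-coding transcripts each for Bcl2l1 and Bcl2l11 and 2 for Bad, and which of them each probe reads was not settled, so a signal stands for the gene and not for a form such as Bcl-xL. No exon or UTR map of mm9 was used.

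Gs-coupled receptors such as Gipr raise cAMP, which acts on transcription through the cAMP response element, TGACGTCA, and its half-site TGACG, which reads CGTCA on the opposite strand. RefSeq promoter windows (GRCm38.p6, 250 bases before to 50 bases after each start) were at hand for 9 of the 10 members, all but Pmaip1, in 13 windows. The half-site, on either strand, occurred in 2 of the 13 windows (15.4%) and in 20.8% of all 32851 windows. The full element, which contains the half-site on both strands, occurred in 0 of the 13 and in 1.79% of all windows. The windows that held the half-site are printed around it, with its letters in capitals.
Bcl2 promoter: ttgaatgaacggTGACGtacgtacaggaa
Mcl1 promoter: agtcctcgcctgCGTCAgcacggccctaa
The Bcl2 stretch lies at chr1:106714381-106714409 on the minus strand, and the Mcl1 stretch at chr3:95658725-95658753 on the plus strand, both on GRCm38.p6. A match in such a window is a description of its letters. The signals of both genes are given below with their groups.

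The targeted gene was read first, as a check of the labels. The Gipr probe had a processed signal of 155, 145 and 176 in knockout testes, against 782, 820 and 1043 in wild-type testes. All knockout values lay below all wild-type values, and the gene fell by 2.48 ± 0.12 on the log2 scale (SE, limma adjusted p = 0.0031). Without knockout replicate 2 the difference was -2.46 and the adjusted p was 0.0571, which does not pass; it passed with each of the other arrays left out in turn. Processed signal is the background-corrected brightness of a spot on a linear scale. Differences are knockout minus wild type in log2 signal after subtraction of each array's 75th percentile, with the moderated standard error (SE), and an adjusted p under 0.05 was called a change. The signals printed here are before that scaling, and the 75th percentile itself ran from 768 to 839 across the arrays.

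None of the 15 member probes changed between the genotypes. Knockout arrays fill 1 row of the slide and wild-type arrays the other, so a position effect and the genotype cannot be told apart. All 15 were well above background on all 6 arrays, so no member passed the filter on dim probes through 1 group alone. Called changes made up 0.0463% of the 38895 probes tested (18 probes), and 0 of the 15 member probes were among them. By direction, 0.00514% of the tested probes were called higher in knockout and 0.0411% lower. At an unadjusted limma p under 0.05 the count of member probes was also 0, against 7.66% of all tested probes. The members' adjusted p-values lay between 0.659 and 0.974. The differences were positive for 11 probes and negative for 4, and ran from -0.13 to 0.17 on the log2 scale. Over all tested probes the median difference was 0.01, and 52.6% were positive. An exact permutation test of 1 probe in 3 arrays against 3 cannot go below p = 0.1, so any call rests on the spread that limma shares across probes.

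**Figure D1:**
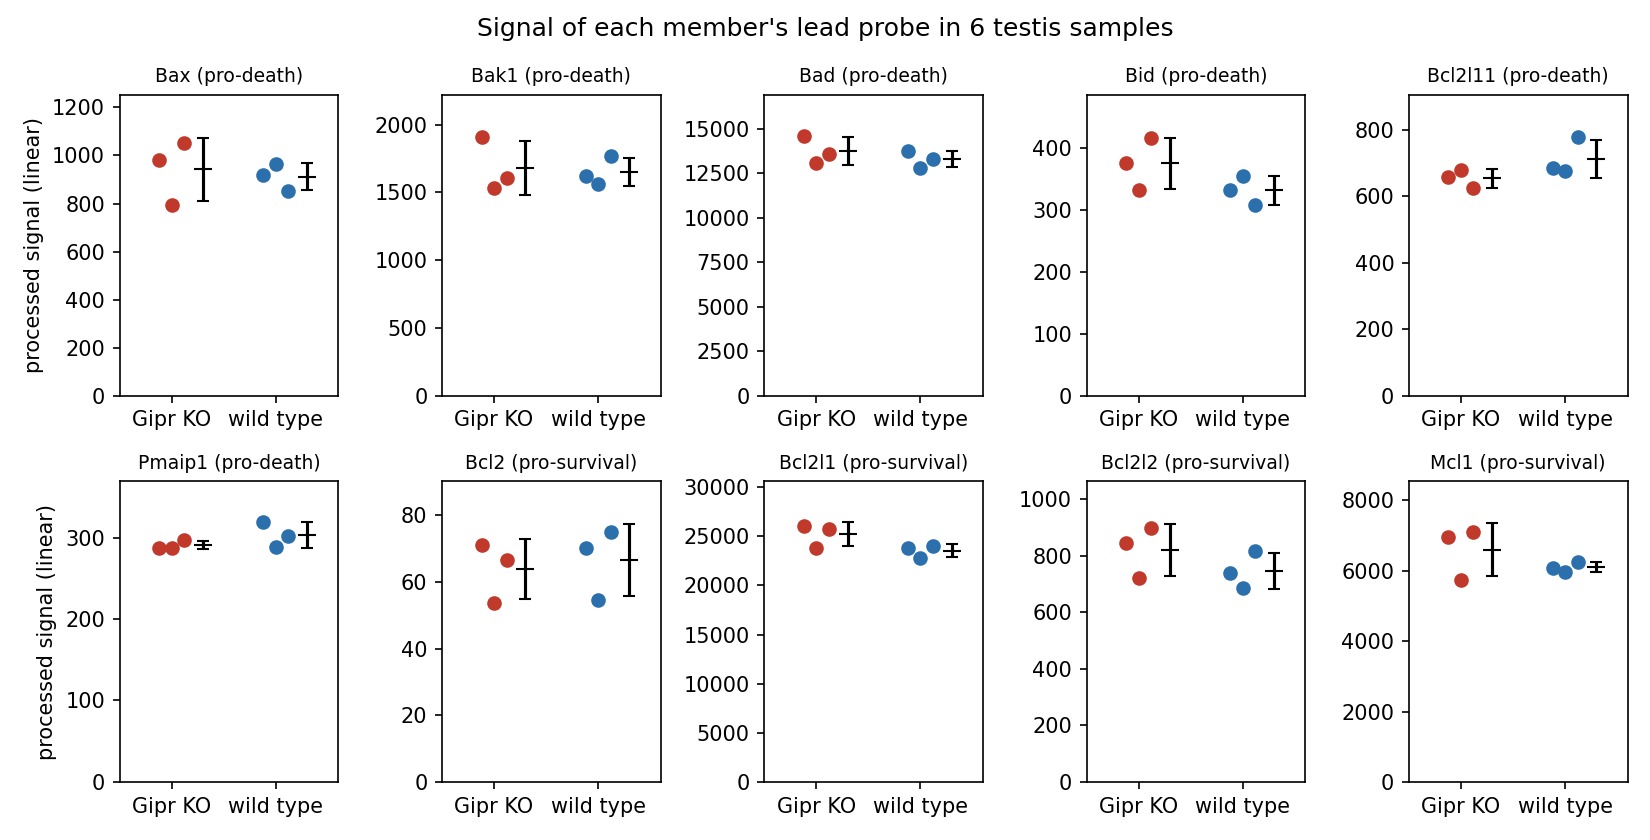
Processed signal (linear scale, each panel from 0) of the brightest probe of each member in every testis sample, Gipr knockout left of wild type, with the mean and SD (n = 3 each) as bars. The groups lie side by side in every panel, with knockout means above wild-type means for 7 of the 10 genes; levels of different panels cannot be compared because probes differ in brightness.

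The effectors showed the smallest differences of the family. Bax, on chr7:52717122-52717181, had a processed signal of 981, 794 and 1050 in knockout testes, against 920, 963 and 852 in wild-type testes. Before scaling, the knockout samples held both the highest and the lowest value, with the wild-type samples between them. After scaling, wild-type replicate 3 was the lowest, nearly level with knockout replicate 2 (both -0.13 relative to the wild-type mean, log2). The log2 difference was 0.03 ± 0.10 (SE, limma adjusted p = 0.95), with a 95% interval of -14.5% to 21.3% as a percent change. Bax lies on the chromosome of the targeted gene, 33.0 Mb from the Gipr probe.

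Bak1, the other effector, on chr17:27156807-27156866, had 1909, 1533 and 1608 in knockout testes, against 1619, 1565 and 1769 in wild-type testes. The highest and the lowest of the 6 signals again belonged to knockout samples. The fitted log2 difference came to 0.01 ± 0.08 (SE, limma adjusted p = 0.974), and the 95% interval ran from -11.9% to 15.3%. The sign of both effectors' differences depended on single arrays. Bax read -0.05 without knockout replicate 3 and -0.04 without wild-type replicate 3, and Bak1 read -0.05 without knockout replicate 1 and -0.02 without wild-type replicate 2.

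Bad, a BH3-only protein that binds Bcl2l1 and Bcl2 and is switched off by phosphorylation, had 2 probes. The brighter one, at chr19:7026323-7026382, read 14618, 13066 and 13609 in knockout testes, against 13765, 12832 and 13315 in wild-type testes. These ranges overlapped, and the log2 difference was 0.04 ± 0.06 (SE, limma adjusted p = 0.878). The second probe, drawn from a span of 486 bases at chr19:7016918-7017403, read 1175, 1121 and 1102 in knockout testes, against 826, 1055 and 1145 in wild-type testes. Its knockout values lay close together, and wild-type replicate 1 was the lowest of all. Knockout minus wild type was, in log2 units, 0.17 ± 0.12 (SE, limma adjusted p = 0.720), and this was the largest positive difference among the 15 probes. It was 0.04 without wild-type replicate 1 and 0.25 without wild-type replicate 3, so the size rests on single arrays.

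Bid, which caspase 8 cleaves into an active form and which thereby links death receptors to mitochondria, had 1 probe at chr6:120843464-120843523. Its signal was 377, 333 and 417 in knockout testes, against 333, 355 and 309 in wild-type testes. Knockout replicates 1 and 3 were the highest, and knockout replicate 2 lay within the wild-type range. The log2 difference was 0.16 ± 0.10 (SE, limma adjusted p = 0.692), with a 95% interval of -4.93% to 31.6%.

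Bcl2l11, a BH3-only protein that engages all of the pro-survival proteins, gave the most negative difference of the family. Its brighter probe, printed above, read 658, 679 and 624 in knockout testes, against 684, 675 and 779 in wild-type testes. Knockout replicate 2 lay above wild-type replicate 2, so the ranges overlapped. The fitted log2 difference came to -0.13 ± 0.08 (SE, limma adjusted p = 0.696), and the 95% interval ran from -20.9% to 4.98%. The second Bcl2l11 probe, at chr2:127954736-127955417, read 42.9, 39.1 and 38.3 in knockout testes, against 35.1, 44.0 and 43.5 in wild-type testes. Here wild-type samples were both the highest and the lowest, and the log2 difference was -0.03 ± 0.10 (SE, limma adjusted p = 0.929).

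Pmaip1, a BH3-only protein that p53 can induce and that binds Mcl1, read 288, 288 and 297 in knockout testes, against 319, 288 and 302 in wild-type testes. Before scaling, the knockout samples lay close together at the lower end of the wild-type range, and the groups overlapped. After scaling, knockout replicates 1 and 3 lay below the wild-type range and replicate 2 within it. Knockout minus wild type was, in log2 units, -0.07 ± 0.07 (SE, limma adjusted p = 0.792).

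Bcl2, the founding pro-survival member, had the widest interval of the family. Its single probe read 71.1, 53.8 and 66.6 in knockout testes, against 70.2, 54.6 and 75 in wild-type testes. In each genotype replicate 2, which is also slide column 2, was the lowest, and the ranges overlapped. The log2 difference was -0.07 ± 0.13 (SE, limma adjusted p = 0.891), with a 95% interval of -23.7% to 19.1%. Changes within those bounds were left unresolved by 3 arrays a group. The bounds are not a limit of detection, since a call needed an adjusted p under 0.05. The sign of the Bcl2 difference turned when wild-type replicate 3 or knockout replicate 2 was left out, with values of 0.00 and 0.01.

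Bcl2l1, which holds Bax and Bak1 inactive and is needed for the survival of early germ cells, was the member whose groups stood apart most. Its brighter probe read 26018, 23776 and 25777 in knockout testes, against 23781, 22748 and 23979 in wild-type testes. These unscaled signals overlapped through knockout replicate 2. After scaling, the values relative to the wild-type mean were 0.08, 0.08 and 0.10 in knockout testes, against 0.04, -0.03 and -0.01 in wild-type testes (log2), which do not overlap. The fitted log2 difference came to 0.09 ± 0.06 (SE, limma adjusted p = 0.699), and the 95% interval ran from -3.27% to 16.7%.

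The Bcl2l1 probe printed above read 473, 435 and 471 in knockout testes, against 414, 431 and 407 in wild-type testes. All knockout samples were above all wild-type samples, both before and after scaling. Knockout minus wild type was, in log2 units, 0.13 ± 0.06 (SE, limma adjusted p = 0.659), with an unadjusted p of 0.0881 and a 95% interval of -1.72% to 21.1%. The 2 Bcl2l1 probes were the only ones of the family whose scaled values did not overlap between genotypes, which is 2 of 15 member probes (13.3%), both of 1 gene and both higher in knockout. Among all tested probes 7.84% were higher without overlap and 5.54% were lower without overlap, 13.4% together, so the share in the family was close to that of the array.

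Bcl2l2, the member whose loss sterilizes male mice, had 2 neighbouring probes on chromosome 14. The brighter one, at chr14:55506840-55506899, read 845, 720 and 900 in knockout testes, against 739, 686 and 816 in wild-type testes. Knockout replicate 2 lay within the wild-type range, and knockout replicates 1 and 3 lay above it. The log2 difference was 0.12 ± 0.09 (SE, limma adjusted p = 0.720). The second probe, at chr14:55507008-55507067, read 75.9, 56.9 and 77.0 in knockout testes, against 62.7, 56.4 and 70.3 in wild-type testes. Before scaling it ordered the 6 samples in the same way, and its log2 difference was 0.13 ± 0.12 (SE, limma adjusted p = 0.768).

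Mcl1, a short-lived protein that binds Bak1 and Bcl2l11, had a brighter probe at chr3:95466855-95466914. It read 6955, 5723 and 7096 in knockout testes, against 6074, 5972 and 6247 in wild-type testes. The knockout signals spread over more than the whole wild-type range, with replicate 2 below it and replicates 1 and 3 above it. The fitted log2 difference came to 0.09 ± 0.07 (SE, limma adjusted p = 0.732), with a 95% interval of -5.67% to 20.7%. The second probe, at chr3:95465543-95465602, read 1023, 870 and 1025 in knockout testes, against 902, 937 and 922 in wild-type testes. Before scaling it showed the same arrangement. After scaling, knockout replicate 2 of this probe lay within the wild-type range, at -0.02 against -0.04 in wild-type replicate 3 (log2, relative to the wild-type mean). The log2 difference of the second probe was 0.06 ± 0.07 (SE, limma adjusted p = 0.792).

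**Figure D2:**
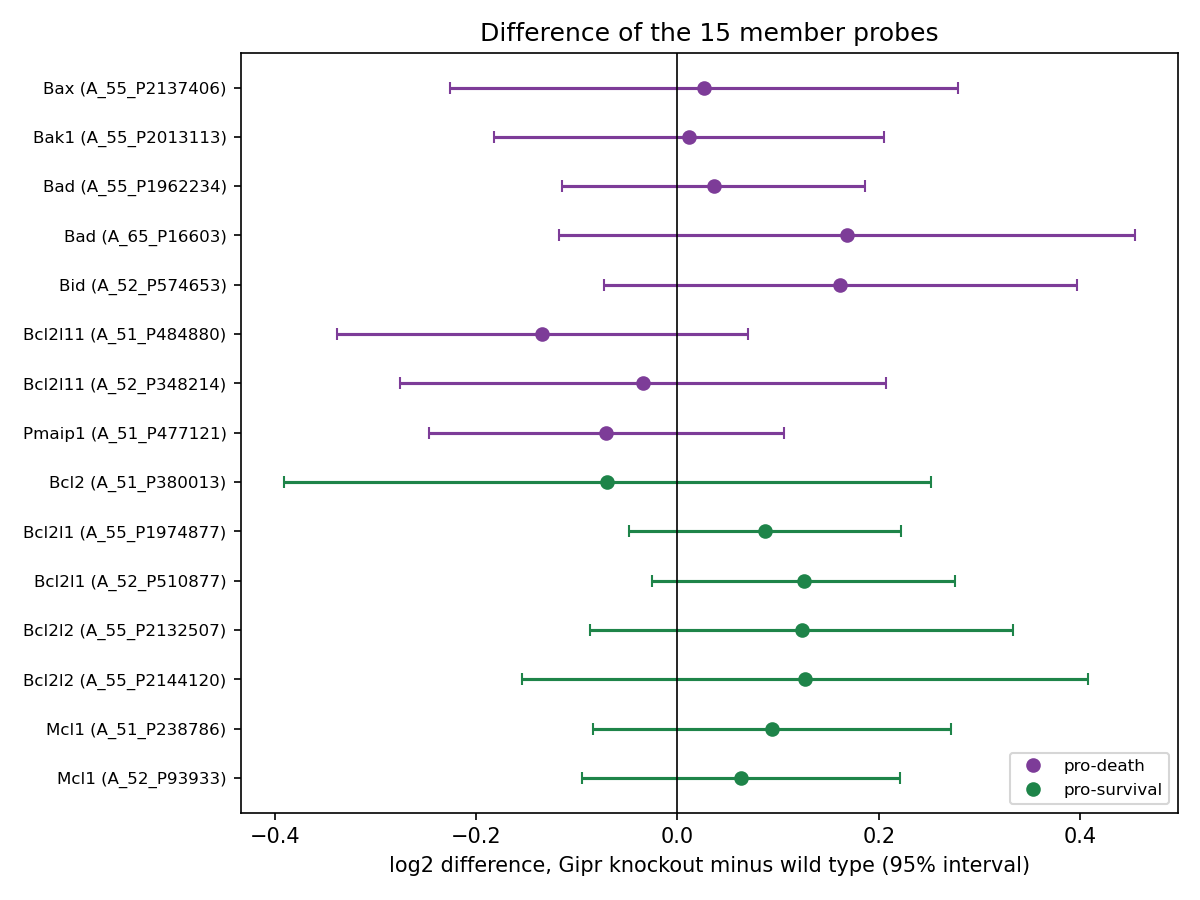
Log2 difference (knockout minus wild type) of each of the 15 member probes with its 95% interval from limma, pro-death in purple and pro-survival in green. Every interval crosses 0, and the intervals together reach from -0.39 to 0.45.

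Each of the 5 genes with 2 probes had both on the same side of 0, Bad, Bcl2l1, Bcl2l2 and Mcl1 above it and Bcl2l11 below it. The second Bcl2l11 probe turned to 0.01 without knockout replicate 3 and to 0.03 without wild-type replicate 2. In the scaled values, knockout replicate 3 was the highest of the 6 arrays for 8 of the 15 probes, while wild-type replicate 3 was the lowest for 5. On that scale knockout replicate 2 was the lowest for 1 probe, although its signals before scaling were the lowest more often.

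**Figure D3:**
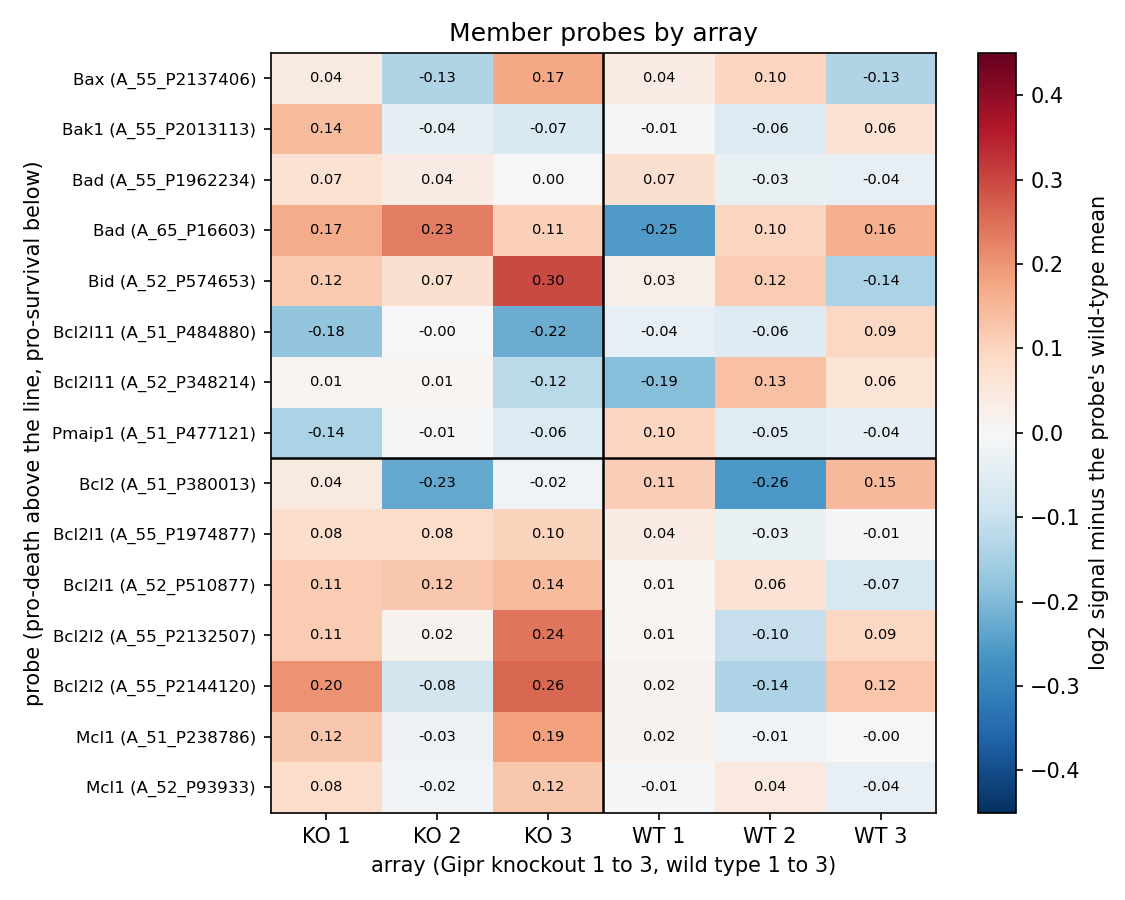
Log2 signal of each member probe minus its mean in the wild type, by array, with knockout arrays left of the vertical line. Knockout replicate 3 has the deepest red of the Bid, Bcl2l2 and Mcl1 probes, and the Bcl2l1 probes are the only ones with all knockout values above all wild-type values.

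The balance of survival and death members was compared next, since their relation is what sets the threshold of apoptosis. With 1 probe per gene, the brightest, the median log2 difference was 0.02 for the 6 pro-death genes (4 positive and 2 negative). For the 4 pro-survival genes it was 0.09 (3 positive and 1 negative). The median was 0.0017 over all genes read by their brightest probe (50.6% positive) and 0.01 over all tested probes. Without knockout replicate 3 the pro-survival median was 0.06, and the pro-death median was 0.00. The pro-death median turned to -0.01 when either wild-type replicate 3 or knockout replicate 1 was left out.

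Per array, the mean deviation of the pro-survival probes minus that of the pro-death probes was 0.05, -0.05 and 0.08 in knockout testes, against -0.02, -0.13 and 0.06 in wild-type testes (log2). The values overlapped, with wild-type replicate 3 second highest of the 6. In both genotypes replicate 2 was the lowest and replicate 3 the highest. Each knockout value lay above the wild-type value of the same replicate number, which is also the slide column. Whether the columns share part of the spread within the genotypes was not tested. The means were 0.03 ± 0.07 in knockout testes and -0.03 ± 0.10 in wild-type testes (SD, n = 3 each), a difference smaller than the spread within either genotype. That difference was 0.05, and it was 0.03 without knockout replicate 3, 0.0025 without wild-type replicate 2, 0.09 without knockout replicate 2 and 0.10 without wild-type replicate 3. No test was made of this score, because its members were chosen with results of these data known.

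The Bax to Bcl2 ratio, a common summary of apoptotic balance, was read only against its own wild-type mean, since levels of 2 probes cannot be compared. On the log2 scale it was 0.00, 0.10 and 0.19 in knockout testes, against -0.07, 0.36 and -0.28 in wild-type testes. The wild-type samples held the highest and the lowest value. The mean was 0.10 ± 0.10 in knockout testes and 0.00 ± 0.32 in wild-type testes (SD, n = 3 each).

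**Figure D4:**
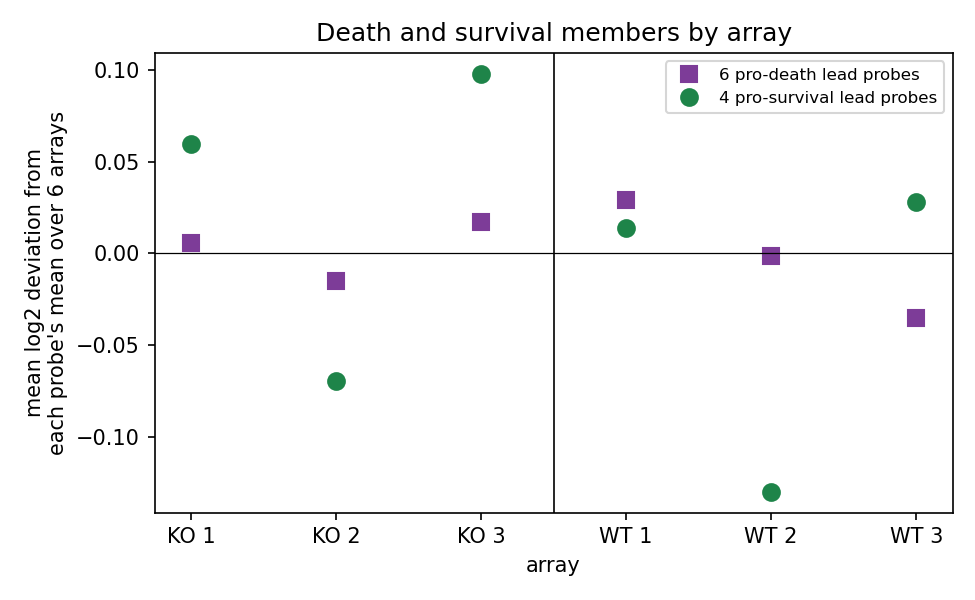
Mean log2 deviation of the 6 pro-death lead probes (squares) and the 4 pro-survival lead probes (circles) from each probe's mean over all arrays, by array, knockout left of wild type. The pro-survival values of the knockout arrays lie between -0.07 and 0.10 and those of the wild-type arrays between -0.13 and 0.03, so the groups overlap.

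The other genes of the pathway were taken from 7 lists of 64 genes, of which 58 were tested. None was called in either direction, and 6 had an unadjusted limma p under 0.05 (10.3%), 2 of them positive and 4 negative, against 6.93% of all genes read by their brightest probe and 0.0557% called among them. Among 11 tested other Bcl2 family genes, 3 were positive and 8 negative, with a median of -0.10. That list also held the pathway gene with the most negative difference.

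Bbc3 (Puma), a BH3-only protein that p53 induces, had 259, 230 and 341 in knockout testes, against 352, 397 and 470 in wild-type testes. All knockout values lay below all wild-type values. Knockout minus wild type was, in log2 units, -0.58 ± 0.16 (SE, limma adjusted p = 0.576), which did not pass. The Bbc3 probe, at chr7:16903403-16903462, lies 2.84 Mb from the Gipr probe at chr7:19742486-19742545. The part of this position in the difference was not tested.

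Bmf, another BH3-only protein, showed a log2 difference of -0.19 ± 0.09 (SE, limma adjusted p = 0.656). Its scaled values did not overlap, although the signals before scaling did. Bok, an effector relative of Bax, differed by -0.06 ± 0.10 (SE, limma adjusted p = 0.875). Bcl2l10, Hrk and Bcl2a1c were not well above background in every sample of either group and were not tested, Bcl2a1a and Bcl2a1b had no probe of that name, and the reading of Bcl2a1d is uncertain because near-identical copies of that gene share sequence.

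Among the 4 mitochondrial partners 1 was positive and 3 were negative. Vdac2, a channel that holds Bak1 at the outer membrane, differed by -0.07 ± 0.06 (SE, limma adjusted p = 0.738). In the apoptosome and caspase list 10 of 14 genes were positive and 4 negative, with a median of 0.04. Cytochrome c is encoded by Cycs and, in male germ cells, by the testis form Cyct, and these differed by 0.03 ± 0.07 and -0.01 ± 0.08 (SE, limma adjusted p = 0.907 and 0.974). Apaf1, the scaffold that cytochrome c assembles, differed by 0.19 ± 0.12 (SE, limma adjusted p = 0.703), and the initiator Casp9 by -0.04 ± 0.07 (adjusted p = 0.893).

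Dffa, the inhibitor of the nuclease that cuts chromatin in apoptosis, was the pathway gene with the lowest p. Its brightest probe read 132, 130 and 131 in knockout testes, against 90.7, 109 and 103 in wild-type testes. The groups did not overlap, and the log2 difference was 0.37 ± 0.08 (SE, limma adjusted p = 0.484), which did not pass. Its 3 probes disagreed, with differences of 0.37, 0.35 and -0.19. Endog, a mitochondrial nuclease, read 240, 216 and 232 in knockout testes, against 246, 274 and 277 in wild-type testes, with a log2 difference of -0.23 ± 0.06 (SE, limma adjusted p = 0.597).

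In the death receptor list 7 of 9 tested genes were negative, with a median of -0.08. Fasl, the ligand of the death receptor Fas, read 148, 137 and 125 in knockout testes, against 161, 166 and 167 in wild-type testes. The groups did not overlap, and the log2 difference was -0.28 ± 0.08 (SE, limma adjusted p = 0.597). Fas differed by -0.29 ± 0.12 (adjusted p = 0.649), Casp8 by -0.10 ± 0.14 (adjusted p = 0.855), and Xiap, a caspase inhibitor, by -0.06 ± 0.10 (adjusted p = 0.855), all by limma with SE. Xiap belongs to the list of inhibitors of apoptosis, in which 3 of 5 genes were positive and 2 negative, with a median of 0.02. In the list of Mcl1 and Bcl2 family protein turnover 2 of 4 genes were positive and 2 negative.

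In the p53 axis 6 of 11 tested genes were positive and 5 negative. Trp53 differed by 0.07 ± 0.10 and its target Cdkn1a, a cell cycle inhibitor, by -0.12 ± 0.08 (SE, limma adjusted p = 0.855 and 0.703). The p53 targets Ccng1 and Sesn2 had unadjusted p-values under 0.05 in opposite directions, with log2 differences of -0.25 ± 0.09 and 0.18 ± 0.07 (SE, limma adjusted p = 0.640 and 0.643).

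**Figure D5:**
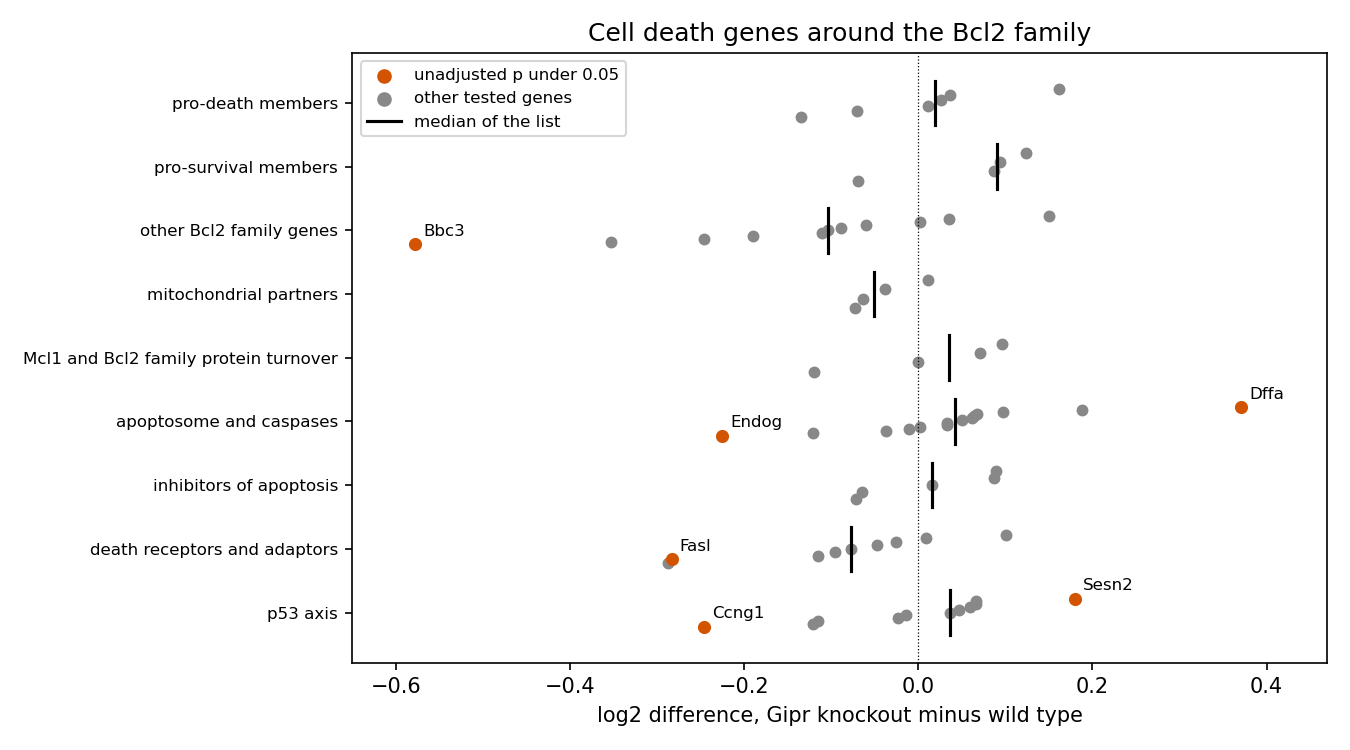
Log2 difference (knockout minus wild type) of the brightest probe of each gene in the Bcl2 family and the 7 surrounding lists, with the median of each list as a bar. Orange points have an unadjusted limma p under 0.05 and none passed after adjustment; the 10 members are all grey.

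The labelled tissue was checked on 8 marker lists, in which 72 of 76 genes were tested and 0 were called. Ret, Nanos2 and Cd163 were not tested for want of signal, and Insl3 had no probe of that name. Sertoli cell markers were positive for 8 of 10 genes, with summed signals of 285706 to 321196 in knockout testes, against 281075 to 291478 in wild-type testes. All sums here are before scaling. After scaling, the Sertoli list's median deviations from the mean over all arrays overlapped between genotypes. They were 0.003, -0.007 and 0.154 in knockout testes, against 0.040, -0.069 and -0.095 in wild-type testes (log2). Myoid markers were positive for 6 of 6 genes, spermatocyte markers for 9 of 10, and Leydig markers for 1 of 9, the last with sums of 51597 to 89956 in knockout testes, against 86027 to 118698 in wild-type testes. Without Ptgds, left out after the values were seen, the Leydig sums were 41680 to 48784 in knockout testes, against 46641 to 51363 in wild-type testes. After scaling, the median deviations of the whole Leydig list did not overlap. They were -0.013, 0.055 and -0.461 in knockout testes, against 0.121, 0.293 and 0.120 in wild-type testes (log2). The spermatocyte medians were narrowly apart, from -0.0185 upward in knockout testes and from -0.0187 downward in wild-type testes. Medians of the other lists overlapped. Elongating spermatid and macrophage markers were negative for 8 of 10 and 8 of 9 genes. Spermatogonial markers were positive for 3 and negative for 5 of 8 genes, with a median of -0.02. Round spermatid markers were positive for 3 and negative for 7 of 10 genes, with a median of -0.07.

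At an unadjusted limma p under 0.05 the positive markers were Mlh3 (0.16 ± 0.07), Fshr (0.51 ± 0.19), Rhox8 (0.24 ± 0.07) and Myh11 (0.25 ± 0.10). The negative ones were Odf1 (-0.30 ± 0.11), Hsd17b3 (-0.74 ± 0.26) and Ptgds (-1.58 ± 0.61), all log2 differences with SE. Together these were 7 of 72 tested markers (9.72%), against 6.93% of all genes read by their brightest probe. The Ptgds groups overlapped, with signals of 12440, 46406 and 9917 in knockout testes, against 55681, 39386 and 67335 in wild-type testes. Knockout replicate 3, the highest array for 8 of the 15 member probes after scaling, also had the lowest median of the Leydig markers, -0.46 from their mean over all arrays. This array was likewise the lowest for round spermatid (-0.12), elongating spermatid (-0.19) and macrophage markers (-0.30). It was the highest for spermatogonial (0.16), spermatocyte (0.12), Sertoli (0.15) and myoid markers (0.16). The part of these shifts in the members' values was not tested.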

How the data were processed

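RNA from testes of 3 mice lacking Gipr and of 3 wild-type mice was read on Agilent arrays of design 028005. Per the file headers, the deposited values are spot intensity on a linear scale from Feature Extraction 10.7.3.1, background-corrected and spatially detrended. The authors also deposited a table of intensity values in which 98.8% to 99.2% of the entries of a column lay within 0.1% of the processed signal times 1 factor per array, with a median of 200, and it served only as an alternative. Between 70.6% and 76.0% of the non-control spots of an array were well above background, and 0 were saturated.

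From the processed signal, log2 values without the outlier-flagged spots were averaged per probe and set relative to the array's own 75th percentile. Testing required a signal well above background in every sample of either group, a probe counting as above where any of its spots was, and 13 probes without a usable spot on some array were dropped. Groups were compared with limma 3.58.1 (R 4.3.3, lmFit and eBayes) without covariates, with Benjamini-Hochberg adjustment over all 38895 tested probes, two-sided. The script was checked on simulated data. The number of arrays limits the precision, and nothing in the labels says how the animals relate. Each p-value sets a group difference against the spread between these samples, moderated by the spread that limma shares across probes.

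The knockout arrays fill 1 slide row and the wild-type arrays the other, on 1 slide with 1 scan time, so that row cannot be told apart from genotype. Within each row the replicate number was also the slide column, so replicate and column cannot be told apart. Over all tested probes, same-numbered samples did not deviate together (correlations of 0.06, -0.02 and 0.00), so the numbers were not taken as pairs. Single members can differ from that. With the replicate number as a block, the SE fell from 0.13 to 0.08 for Bcl2 and from 0.09 to 0.07 for Bcl2l2. It rose for the lead probes of the other members.

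The members and lists were chosen with earlier results of these data known. All members and all their probes are named, with a set of pathway genes and any list gene with an unadjusted p under 0.05. The result of 1 gene among those pathway genes is not reported here. A gene's lead probe is its brightest tested one. Names were updated through RefSeq (GRCm38.p6), by accession for 26762 probes, current symbol for 3819 and older symbol for 639; the files' own name stayed for 24461. Positions are those of the files (mm9). Alternatives covered background correction, scaling, the authors' values, filters, outlier spots, 1 probe per gene, array weights, a replicate block and leaving out each array.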

Additional observations from a re-analysis of the deposited data

How the results depend on the processing

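The count of 0 changed member probes held under all 16 alternatives, with 1 member probe at an unadjusted p under 0.05 with normexp background correction (Bcl2l1, 0.15) and 1 without knockout replicate 2 (Bcl2l11, -0.20), and 0 in the others. The array-wide count of 18 changed probes (2 higher and 16 lower in knockout) was 29 with array weights (8 higher), 30 with normexp (7 higher), 11 with quantile normalization (0 higher), 7 without a filter on dim probes (1 higher and 6 lower) and 5 to 11 with 1 array left out (0 to 0 higher and 5 to 11 lower). Only 1 probe was higher with the authors' deposited values and with median scaling, and 0 when a signal above background was required on every array. With the replicate number as a block, 6 probes changed, 1 higher and 5 lower, and 0 of them were members. The pro-death median ran from -0.011 to 0.036 with 1 array left out, and the pro-survival median stayed positive under all 16 alternatives (0.06 to 0.12). The sign of Bax turned with array weights (-0.017) and of Bcl2 likewise (0.074). With 1 array left out, Bax ran from -0.047 to 0.107, Bak1 from -0.055 to 0.051 and Bcl2 from -0.199 to 0.0102. The lead probes of the other 7 genes kept their sign throughout, while the second Bcl2l11 probe ran from -0.13 to 0.03. Survival minus death ran from 0.0025 to 0.10 with 1 array left out and was 0.11 with array weights. The causes were not tested, and 3 arrays a group leave changes inside the printed intervals unresolved.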
